A study of Homo sapiens with 4 samples.

Results

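The segment described here is the distal end of the short arm of human chromosome 9, taken as every accessible region of chromosome 9 that starts below 20,000,000 bp in the hg19 build. It held 551 of the 60886 regions obtained by merging the peaks of 4 ATAC-seq libraries that overlapped by at least 1 bp, and the other 1926 regions of chromosome 9 served as its comparison. The segment was chosen by measured values of these same libraries, namely its excess of gained regions, that is, regions with a peak in both libraries of the transformed cells and in neither library of the parental cells. The counts of gained and lost regions and of peaks per cell type therefore describe the choice itself, and no test was made on them.

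MCF10A cells, labelled Parental, are an epithelial line from human breast that grows without limit but is not transformed, and they gave 2 libraries. G12V is the same line after lentiviral transfer of the HRAS oncogene with the G12V change (labelled H-RAS Gv12) and selection of carriers with hygromycin, with a GFP vector used to follow the transfer, and it also gave 2 libraries. The study's methods call the replicates biological, without saying whether they were separate transductions. ATAC-seq uses the Tn5 transposase to insert sequencing adapters into open DNA, and the question of the comparison was which loci opened or closed with the oncogene.

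Accessible regions fall into promoters, where transcription starts, and distal elements such as enhancers and insulators, which are opened by sequence-specific factors and vary far more between cell states. The distal 9p segment carries a mixture of both kinds. It holds JAK2, the kinase of many cytokine receptors, beside CD274 and PDCD1LG2, which encode the ligands of the immune checkpoint receptor PD-1. It also holds developmental transcription factor genes (DMRT1, DMRT2, GLIS3, RFX3, NFIB, BNC2), the histone demethylase gene KDM4C, and long stretches with few genes around the receptor phosphatase gene PTPRD. GENCODE placed the starts of 63 protein-coding genes in the segment.

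The gained regions were ordered by the lower of their ranks in the G12V lists, and 4 of the top 5 are shown as the 150 bp at the midpoint of their best peak, since these are the loci where the G12V calls stood highest above the caller's threshold. Rank here is the percentile of the peak score within its own list, where 100 is the best peak. The sequences are the plus strand of hg19, and capitals mark a match to 1 of 6 motifs that were searched on both strands. The motifs were AP-1 (TGACTCA), TEAD (GGAATG), grainyhead or GRHL (AACNGGTT), ETS (CCGGAAG), CTCF and p53. None of these 4 windows held a match. The remaining region of the top 5, chr9:16704508-16705788 over a coding exon of BNC2, came in place 3 of that order and is given by position only, because its window reaches an annotated exon.

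TTC39B downstream, chr9:15157905-15158054: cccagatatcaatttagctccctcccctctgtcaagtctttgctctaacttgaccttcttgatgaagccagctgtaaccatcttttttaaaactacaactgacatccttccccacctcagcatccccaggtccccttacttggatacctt
SLC1A1 intron, chr9:4530662-4530811: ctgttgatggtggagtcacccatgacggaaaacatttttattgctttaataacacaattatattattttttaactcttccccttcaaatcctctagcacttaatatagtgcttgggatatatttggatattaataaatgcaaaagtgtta
TTC39B downstream, chr9:15144664-15144813: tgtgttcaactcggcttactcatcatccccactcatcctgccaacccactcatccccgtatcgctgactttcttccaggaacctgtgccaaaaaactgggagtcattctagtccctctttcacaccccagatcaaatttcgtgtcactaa
DMRT1 upstream, chr9:756020-756169: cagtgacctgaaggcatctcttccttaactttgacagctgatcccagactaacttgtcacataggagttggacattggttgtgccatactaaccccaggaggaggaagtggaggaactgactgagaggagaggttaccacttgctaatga

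The 3 lost regions, open in both MCF10A libraries and in neither G12V library, are shown in the same way because they are the whole of the opposite class. The window near GLIS3 held an AP-1 match, in capitals.

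BNC2 intron, chr9:16530776-16530925: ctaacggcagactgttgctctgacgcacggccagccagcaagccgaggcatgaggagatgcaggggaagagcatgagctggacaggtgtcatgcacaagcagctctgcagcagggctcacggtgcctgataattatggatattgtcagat
VLDLR upstream, chr9:2362434-2362583: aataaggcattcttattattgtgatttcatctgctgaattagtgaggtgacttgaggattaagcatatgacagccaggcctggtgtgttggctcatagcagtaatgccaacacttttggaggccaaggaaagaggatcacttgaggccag
GLIS3 intron, chr9:4345099-4345248: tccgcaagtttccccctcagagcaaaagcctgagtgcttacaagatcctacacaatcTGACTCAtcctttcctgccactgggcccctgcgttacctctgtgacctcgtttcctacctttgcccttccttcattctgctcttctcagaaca

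With the start of each gene taken as its outermost annotated one, BNC2 was the only gene of the segment whose promoter was gained. Its region has its nearer edge 918 bp upstream of the gene start. The midpoint window of that region begins 1178 bp upstream, outside the promoter stretch itself, and held none of the 6 motifs.

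BNC2 upstream, chr9:16872019-16872168: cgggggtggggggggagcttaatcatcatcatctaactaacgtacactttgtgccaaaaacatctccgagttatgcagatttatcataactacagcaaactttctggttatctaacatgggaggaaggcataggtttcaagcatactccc

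Before these regions are described, the limits of the lists have to be stated. The lists held 12888 and 34463 peaks for MCF10A replicates 1 and 2 and 14042 and 46673 for G12V replicates 1 and 2, on the 22 autosomes and X. Read numbers are unknown, so the length of a list stands in for depth, and the replicate 2 lists were the longer ones in both cell types. Promoters of 8 basal mammary genes were checked against the labelled cell type: 3 were called in each MCF10A library, 0 in G12V replicate 1 and 2 in G12V replicate 2, and those of KRT5, KRT14, TP63 and CDH3 were called in none. Only the outermost annotated start of each gene was checked, so a promoter inside a gene such as TP63 would be missed. Of 19 promoters of luminal, fibroblast, blood and endothelial genes, the 4 libraries had peaks at 0, 2, 0 and 1. The lists thus hold few promoters of any marker list, and neither the epithelial identity nor the HRAS allele could be read from them.

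The segment took up a larger part of chromosome 9 in the G12V lists than in the MCF10A lists. Of the chromosome 9 peaks, it held 78 of 471 in MCF10A replicate 1, which is 16.6% (95% Wilson interval 13.5 to 20.2), and 210 of 1272 in MCF10A replicate 2, which is 16.5% (14.6 to 18.7). In G12V it held 177 of 547 in replicate 1, which is 32.4% (28.6 to 36.4), and 472 of 1931 in replicate 2, which is 24.4% (22.6 to 26.4). Both G12V libraries were above both MCF10A libraries, which the choice of the segment by this excess favours. The mean share (± SD over 2 libraries) was 16.5 ± 0.0361% for MCF10A and 28.4 ± 5.597% for G12V, a difference of 11.9 percentage points. The intervals cover counting error only. Pooled over libraries, the odds of a chromosome 9 peak lying in the segment were 1.79 times as high in G12V as in MCF10A.

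**Figure D1:**
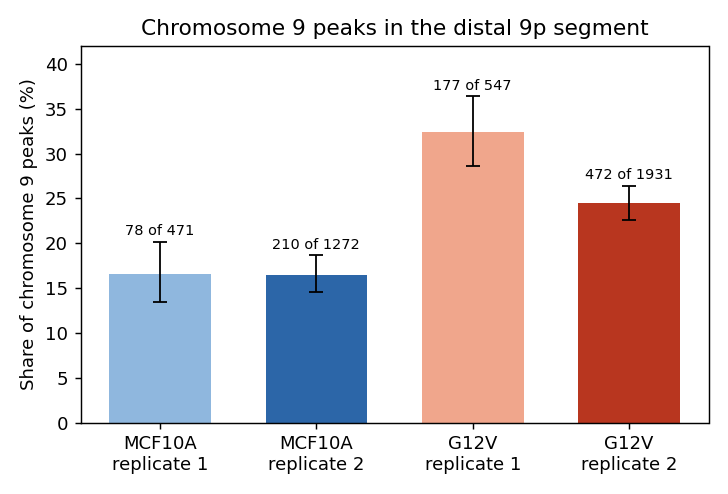
Share of chromosome 9 peaks that lay in the distal 9p segment (vertical axis, %), 1 bar per library, with 95% Wilson intervals and peak numbers above the bars. The MCF10A bars stand at 16.6% and 16.5%, and the G12V bars at 32.4% and 24.4%.

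Although the lists differed in length, each replicate number gave nearly the same ratio in the segment. The G12V list held 2.27 times as many segment peaks as the MCF10A list of replicate 1, and 2.25 times as many for replicate 2. In the rest of chromosome 9 the ratios were 0.942 and 1.37, and over the whole lists 1.09 and 1.35. Whole chromosomes ranged from 0.729 to 1.69 for replicate 1, and from 0.958 to 1.75 for replicate 2, but these were not picked for an excess as the segment was. The DNA covered by segment peaks was 32.3 and 130.5 kb in MCF10A replicates 1 and 2, and 85.8 and 325.7 kb in G12V replicates 1 and 2. A peak list cannot tell apart more accessible DNA and more copies of the DNA, and the copy number of the segment was not tested.

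The shift was larger outside promoters. A peak was counted as promoter-proximal when any base of it fell between 1000 bp before and 500 bp after the start of a protein-coding gene. Each gene had a single start, the outermost one in the annotation, so a start inside a gene was not counted as a promoter. Outside promoters, the segment had 58 peaks in MCF10A replicate 1 and 145 in G12V replicate 1, a ratio of 2.50, and 173 against 432 for replicate 2, again 2.50. At promoters it had 20 against 32 for replicate 1, a ratio of 1.60, and 37 against 40 for replicate 2, a ratio of 1.08. The matching ratios in the rest of chromosome 9 were 0.919 and 1.47 outside promoters, and 0.985 and 1.08 at promoters.

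All 4 stretches of 5 Mb in the segment showed the shift. The outermost, with DMRT1, KANK1, GLIS3 and JAK2, had 32 and 83 peaks in MCF10A and 58 and 144 in G12V, ratios of 1.81 and 1.74 for replicates 1 and 2. From 5 to 10 Mb, where CD274 and KDM4C lie, the ratios were 2.19 and 2.36. The stretch from 10 to 15 Mb, a span that ends with MPDZ and NFIB, went from 6 and 30 peaks in MCF10A to 36 and 111 in G12V, ratios of 6.0 and 3.7. From 15 to 20 Mb, with BNC2 and RPS6, the ratios were 2.0 and 2.13.

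In the 18 stretches outside the segment that had at least 5 peaks in both replicate 1 lists, the ratio ran from 0.423 to 1.5 with a median of 0.921 for replicate 1. It ran from 1.0 to 1.98 with a median of 1.38 for replicate 2. The boundary at 20 Mb is a choice of the rule. The next stretch, from 20 to 25 Mb, had 4 and 25 peaks in MCF10A and 12 and 51 in G12V, ratios of 3.0 and 2.04, with 4 gained regions and 1 lost. The last 2 regions inside, chr9:19994030-19994838 and chr9:19998993-20000174, were each called in MCF10A replicate 2 and in both G12V libraries. The nearest 2 outside, chr9:20044690-20045338 and chr9:20117658-20118042, were called in G12V replicate 2 only, at percentiles of 1.29 and 7.16.

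**Figure D2:**
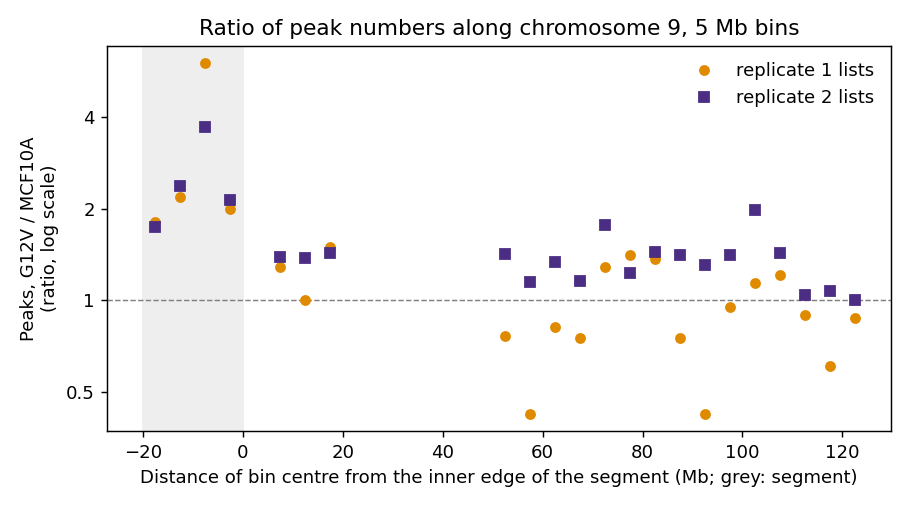
Ratio of peak numbers, G12V over MCF10A (vertical axis, log scale), in 5 Mb stretches of chromosome 9 against the distance of their centre from the inner edge of the segment (Mb; the grey area is the segment). The 4 segment points lie between 1.74 and 6.0 in the lists of either replicate number, while the other 18 stretches lie between 0.423 and 1.98. Stretches with under 5 peaks in a replicate 1 list are not drawn.

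Sorted by the libraries in which they were called, 39 of the 551 regions were gained (7.08%, against 3.20% of all regions and 3.01% in the rest of chromosome 9). Only 3 were lost (0.545%, against 2.14% of all regions and 2.08% in the rest of chromosome 9). Gained regions were thus 92.9% of the gained and lost regions of the segment (81.0 to 97.5), against 59.2% in the rest of the chromosome (49.3 to 68.4). Regions missing from a single library leaned the same way. They rest on the same libraries and the same contrast, so the choice of the segment favours this lean and it is not separate support. Among them 47 had peaks in both G12V libraries and 1 MCF10A library (8.53%, against 6.80% of all regions and 5.92% in the rest of the chromosome). Another 12 had peaks in both MCF10A libraries and 1 G12V library (2.18%, against 5.31% and 5.61%). Of the 47, 45 were missing only from MCF10A replicate 1, and all 12 were missing only from G12V replicate 1, the shorter list of each cell type. G12V held 79.7% of these 59 regions, against 51.4% of 222 in the rest of the chromosome. Leaving out 1 library changes what counts as gained: without G12V replicate 1 the count was 307, and it was 72 when G12V replicate 2 and 84 when MCF10A replicate 2 was dropped. Dropping MCF10A replicate 1 gave 39 lost regions, dropping MCF10A replicate 2 gave 7 and dropping G12V replicate 2 gave 15. The lowest gained share was 51.2% without MCF10A replicate 1, where the rest of the chromosome gave 14.98%.

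All 4 libraries shared 48 regions of the segment (8.71%, against 8.36% of all regions and 6.85% in the rest of the chromosome), and 4 were crossed, with 1 library of each cell type and unlike replicate numbers (0.726%, against 1.47% and 1.45%). Most of the remainder rested on 1 library. The segment had 268 regions called in G12V replicate 2 alone (48.6%, against 34.55% of all regions) and 33 in G12V replicate 1 alone (5.99%, against 3.155%). It had 36 in MCF10A replicate 2 alone (6.53%, against 15.8%) and 4 in MCF10A replicate 1 alone (0.726%, against 2.88%). In all, 340 regions had peaks in G12V but not in MCF10A (61.7%, against 40.9% of all regions and 41.4% in the rest of the chromosome), 43 in MCF10A but not in G12V (7.80%, against 20.8% and 22.5%) and 168 in both (30.5%, against 38.3% and 36.1%).

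**Figure D3:**
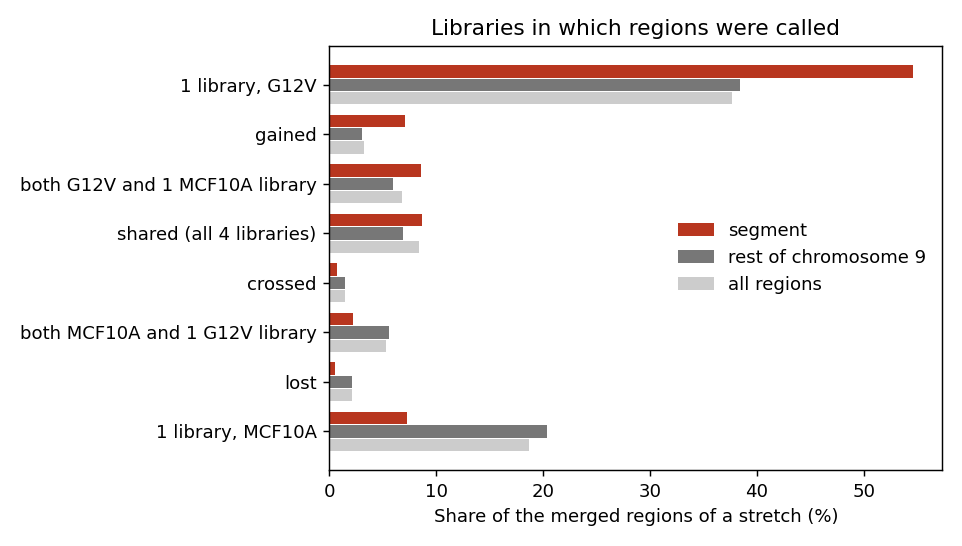
Share of the merged regions of a stretch (horizontal axis, %) in each class of calls, for the segment (n = 551), the rest of chromosome 9 (n = 1926) and all regions (n = 60886). The segment exceeds the rest of the chromosome in the classes that lean to G12V, with 7.08% against 3.01% gained, and stays below it in those that lean to MCF10A, with 0.545% against 2.08% lost.

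The gained regions spanned nearly the whole range of ranks. Their percentiles in G12V replicate 1 ran from 0.356 to 80.8 with a median of 41.8, and in G12V replicate 2 from 0.289 to 98.8 with a median of 64.0. Gained regions in the rest of the chromosome had medians of 44.7 and 55.2. Some of the 39 were near the caller's threshold, such as the region chr9:14347263-14348539 in NFIB at the percentile of 0.356 in replicate 1 and 64.0 in replicate 2. Others ranked high in both lists, led by chr9:15157326-15158634 downstream of TTC39B at 80.8 and 87.9.

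Counts of gained regions per gene are small and depend on how many regions lie nearest to it. That number ran from 1, as for MLANA, to 40 for PTPRD, and each of these 2 genes had 1 gained region. Over the segment 7.08% of regions were gained, and over all regions 3.20%, and no gene was tested against these shares. BNC2, which encodes a zinc finger protein, was the nearest gene to 5 gained regions, the highest count of any gene, and to 1 lost region. The 24 regions nearest to it were called 4 and 11 times in MCF10A and 9 and 17 times in G12V. The strongest gained region, chr9:16704508-16705788, covered a coding exon and had percentiles of 70.9 and 98.8 in the G12V lists. The others in the gene body were chr9:16413522-16414084 over an exon, at 61.6 and 49.0, and chr9:16442570-16443198 in an intron, at 22.4 and 5.61. Beyond the gene start lay chr9:16959983-16960636, at 54.0 and 77.7.

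The gained promoter region of BNC2, chr9:16871759-16872428, ranked low in both G12V lists, at 4.21 and 16.5. The lost region of BNC2, chr9:16530489-16531212, lay in an intron and ranked at 67.8 and 91.6 in the MCF10A lists, so that the gene held sites of both directions. An intronic region, chr9:16726622-16727605, was called in all 4 libraries, at 78.1 and 84.7 in MCF10A and 77.9 and 94.2 in G12V.

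NFIB encodes a transcription factor of the nuclear factor I family, and 4 gained regions were nearest to it, with none lost. Its 30 regions were called 3 and 10 times in MCF10A and 13 and 26 times in G12V. The gained region chr9:14400494-14401215, 1512 bp upstream of the gene start, ranked at 3.34 and 90.9, and chr9:14027271-14027880 and chr9:14030391-14030872 lay some way downstream of the gene, at 17.96 and 60.4 and at 37.0 and 72.6. In an intron, chr9:14237949-14239137 was called in all 4 libraries, at 22.3 and 89.4 in MCF10A and 76.8 and 98.4 in G12V. For this shared site both replicate numbers gave the higher rank to G12V.

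DMAC1, an assembly factor of mitochondrial complex I, also had 4 gained regions and none lost. Its 37 regions were called 4 and 8 times in MCF10A and 9 and 30 times in G12V. The gained regions were chr9:7536204-7536916 (57.7 and 51.2), chr9:7570079-7570530 (53.1 and 13.9), chr9:7657948-7658392 (2.08 and 61.9) and chr9:7844200-7844872 (65.5 and 57.4). The first 3 lay between genes and the last in an intron of DMAC1, so most were neighbours of the gene only in the sense of the nearest start.

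MPDZ, a scaffold protein with many PDZ domains found at tight junctions, had 3 gained regions. Its 22 regions were called 0 and 3 times in MCF10A and 5 and 21 times in G12V. The gained region over a coding exon, chr9:13139409-13140548, ranked at 63.5 and 95.6, the one in an intron, chr9:13268452-13269047, at 0.940 and 74.2, and the intergenic chr9:13728951-13729776 at 45.1 and 66.9. The MPDZ promoter itself was called in G12V replicate 2 only, at 91.7.

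The remaining genes with more than 1 gained region had 2 each. DMRT1 and DMRT2, transcription factors of the doublesex family with roles in gonad and somite development, had theirs at chr9:755647-756542 (65.5 and 88.6) and chr9:764057-764671 (60.2 and 70.1), and at chr9:1267162-1268302 (41.8 and 83.5) and chr9:1490373-1491079 (39.0 and 60.5). KDM4C, which removes methyl groups from histone H3, had both in its body, at chr9:6902362-6903143 (27.7 and 71.8) and chr9:6944100-6944856 (48.0 and 63.3). TTC39B, a tetratricopeptide repeat protein, had chr9:15157326-15158634 and chr9:15144438-15145241, the latter at 71.5 and 68.9. Both TTC39B sites ranked in the upper part of each list.

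PUM3, a Pumilio-family RNA-binding protein, had chr9:2802226-2803188 in an intron (12.3 and 62.6) and the intergenic chr9:3043296-3043752 (60.6 and 11.3). TYRP1, a melanosome protein of pigment synthesis, had chr9:11933869-11934578 (33.4 and 81.6) and chr9:12702136-12702801 over a coding exon (54.0 and 36.4). A further 11 genes were nearest to 1 gained region each, among them JAK2, KANK1, PTPRD, RFX3, RLN2 and SLC1A1. In total 21 of the 59 genes nearest to any region had a gained region.

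Besides BNC2, the lost regions were nearest to GLIS3, a zinc finger transcription factor of pancreatic beta cells, and VLDLR, a lipoprotein receptor. The GLIS3 region, chr9:4344948-4345399 in an intron, ranked at 40.04 and 47.9 in MCF10A. The VLDLR region, chr9:2362246-2362771, lay in intergenic DNA and ranked at 44.7 and 86.6. GLIS3 was also the nearest gene to a gained region, the intergenic chr9:4417929-4418487, at 7.23 and 47.9 in G12V. The gained region inside GLIS3, chr9:3848906-3849221 in an intron, lay nearest to the start of RFX3. It ranked at 40.05 and 0.289 in the G12V lists.

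**Figure D4:**
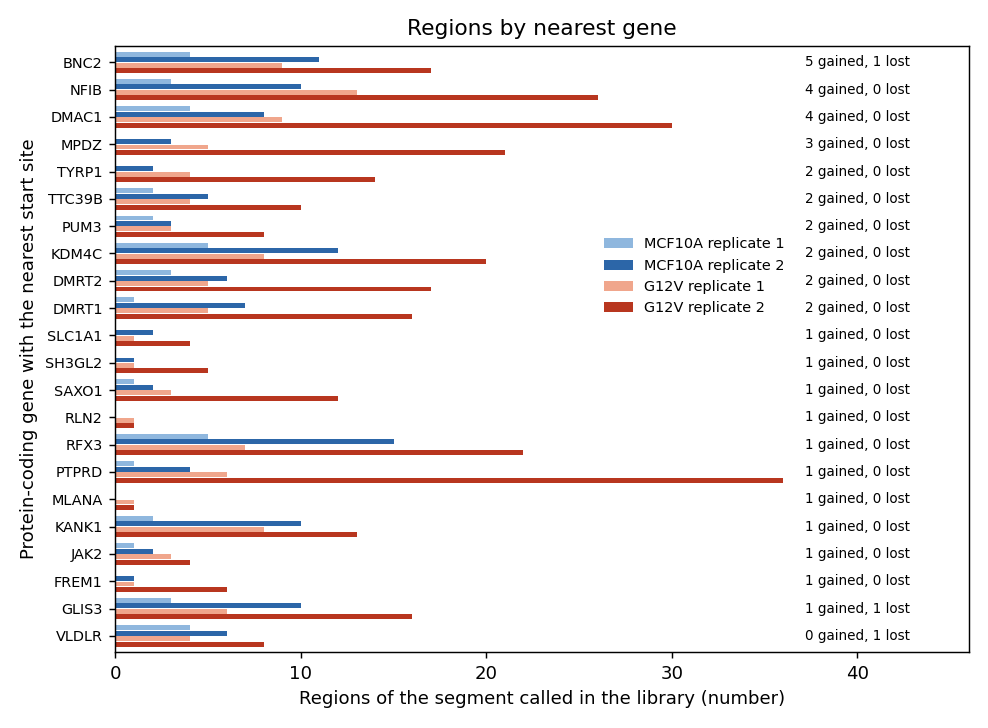
Number of segment regions called in each library (horizontal axis), by the protein-coding gene with the nearest start site, for every gene with a gained or lost region. For PTPRD the bars run from 1 and 4 in MCF10A to 6 and 36 in G12V, and for NFIB from 3 and 10 to 13 and 26.

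Almost all of the gained regions lay away from promoters. Of the 39, 1 was at a promoter, 15 lay within 100 kb of a gene start and 23 lay farther away. With the starts of long non-coding genes included, the promoter share of the gained regions was 7.69%, against 2.56% with protein-coding starts only. The 58 gained regions in the rest of chromosome 9 split into 3, 33 and 22. Within gene bodies, 14 gained regions lay in an intron only and 4 overlapped an exon, and 21 lay outside protein-coding genes. That split was not counted for the other regions, so it does not set the gained ones apart. The segment as a whole had few promoter regions, 41 of 551 (7.44%, 5.53 to 9.94), against 326 of 1926 in the rest of the chromosome (16.9%, 15.3 to 18.7). Among regions shared by all libraries, 21 of 48 were promoters, against 79 of 132.

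Promoter calls overlapped between the cell types. Of the 63 promoters, 20 and 34 had a peak in MCF10A replicates 1 and 2 and 31 and 39 in G12V replicates 1 and 2, so that MCF10A replicate 2 lay above G12V replicate 1. All 20 promoters of MCF10A replicate 1 were called in every library, BNC2 alone had the gained pattern, none had the lost pattern, and 24 had no peak anywhere. These counts cover the outermost start of each gene only, so a gene without a promoter peak can hold open sites farther inside. KDM4C and NFIB had no peak at that start. Regions inside them, chr9:6756870-6759599 and chr9:14313709-14316053, were called in all 4 libraries. In the rest of the chromosome, 139 and 281 of 736 promoters were called in MCF10A and 145 and 308 in G12V. There 4 had the gained pattern (0.5435%), 5 the lost pattern (0.679%) and 384 no peak (52.2%), against 1.59%, 0% and 38.1% in the segment. The 1 gained promoter and the absence of a lost one are too few to set the segment apart.

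The gene lists of the segment, counted over gene bodies with their promoters, differed in where their calls lay. For 9 ribosome, cell division and housekeeping genes, such as RPS6 of the small ribosomal subunit and RRAGA of the amino acid sensing pathway, 8, 8, 8 and 9 promoters were called in MCF10A replicates 1 and 2 and G12V replicates 1 and 2. These genes held 23 regions, of which 8 were shared and none was gained or lost, a small number to read a 0 from when 7.08% of the segment and 3.20% of all regions were gained. RPS6 ranked at 63.5 and 73.2 in MCF10A and 98.3 and 92.1 in G12V, and RRAGA at 92.5 and 95.6 in MCF10A and 92.1 and 98.9 in G12V.

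In the block of 10 genes around JAK2 and the PD-1 ligands, 2, 6, 5 and 7 promoters were called in the same order, and none of their 18 regions was gained or lost, again too few to set apart from the share in the segment. The JAK2 promoter ranked near the top of every list, at 94.5 and 99.9 in MCF10A and 99.1 and 99.8 in G12V. CD274 was not called in MCF10A replicate 1, ranked at 68.9 in MCF10A replicate 2, and at 66.7 and 80.6 in G12V. PDCD1LG2 likewise was not called in MCF10A replicate 1, and ranked at 52.0 in MCF10A replicate 2 and at 20.7 and 88.6 in G12V. The calls at the ligand genes therefore overlapped between the cell types.

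The 8 chromatin and transcription regulators held 95 regions, of which 8 were gained (8.42%, against 7.08% of the segment and 3.20% of all regions). Another 2 of the 95 were lost, where 0.545% of the segment and 2.14% of all regions were, too few to set the list apart. The gained regions lay in 4 genes (BNC2, KDM4C, NFIB and GLIS3). Calls in the 8 genes numbered 16 and 47 in MCF10A and 33 and 77 in G12V, and promoter calls at their outermost starts 2, 4, 5 and 5. SMARCA2, an ATPase of the SWI/SNF remodelling complex, had no call at its outermost start in MCF10A replicate 1. That start ranked at 58.2 in MCF10A replicate 2 and at 85.6 and 81.7 in G12V. A region over an exon inside SMARCA2, chr9:2014257-2018436, was called in all 4 libraries. It ranked at 93.85 and 99.4 in MCF10A and at 99.3 and 99.8 in G12V, so the gene held a high-ranked site in both cell types. RFX3, a factor of ciliated cells, was called at its promoter in every list, at 52.7 and 98.7 in MCF10A and 98.7 and 99.8 in G12V. UHRF2, a ubiquitin ligase that binds methylated DNA, ranked at 86.7 and 82.8 in MCF10A and 71.8 and 94.0 in G12V.

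The 6 adhesion, junction and matrix genes showed the widest spread of calls, with 7 and 20 in MCF10A and 18 and 75 in G12V. Of their 84 regions, 4 were gained (4.76%, against 7.08% of the segment and 3.20% of all regions), in 3 genes. None was lost, against 0.545% of the segment and 2.14% of all regions. PTPRD alone accounted for 38 regions, called 2 and 7 times in MCF10A and 3 and 35 times in G12V, none of them gained. Most calls in PTPRD thus came from G12V replicate 2. ADAMTSL1, a secreted matrix protein, had 30 regions called 3 and 8 times in MCF10A and 7 and 25 times in G12V, of which 1 was gained.

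The 6 genes of the 9p24 tip had calls of 4 and 20 in MCF10A and 12 and 30 in G12V. Of their 35 regions 1 was gained (2.86%, against 7.08% of the segment and 3.20% of all regions). It was chr9:589723-590288 in an intron of the cytoskeletal regulator KANK1 (percentiles 8.77 and 40.8). The 8 metabolism and transport genes had calls of 5 and 15 in MCF10A and 12 and 20 in G12V. Of their 26 regions 1 was gained (3.85%), in the glutamate transporter gene SLC1A1 (percentiles 74.9 and 88.2). A single gained region is too few to set either list apart from these shares. In both lists G12V exceeded MCF10A within each replicate number, while MCF10A replicate 2 exceeded G12V replicate 1.

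In regions called in both cell types, the median rank difference of the segment was above that of the rest of the chromosome in the replicate 2 lists, and below it in the replicate 1 lists. Over the 168 such regions of the segment, the median difference in percentile, G12V minus MCF10A, was 6.57 points (quartiles −5.45 and 22.9), against 5.80 points over 695 regions in the rest of the chromosome and 5.33 over all regions. The gap between the stretches depended on the peaks used, with 16.1 against 5.52 points in the better-scoring 50% of each list and 7.36 against 0.898 in equal lists. Within the replicate 2 lists the median was 10.1 points over 161 segment regions, with 122 of them (75.8%) higher in G12V, against 4.05 points and 58.8% of 658 regions in the rest of the chromosome. Within the replicate 1 lists it was 4.43 points over 51 regions, with 58.8% higher in G12V, against 6.66 points and 56.7% of 141. Both quartiles of the replicate 1 lists were higher in the segment, at −11.8 and 28.8 against −18.5 and 23.3. Without G12V replicate 2 the median over regions called in both cell types turned to −0.782 points, against −3.02 in the rest of the chromosome. Without MCF10A replicate 2 it was 19.3 points, against 12.04. Without MCF10A replicate 1 it was 1.39, against 0.448, and without G12V replicate 1 it was 16.1, against 9.35.

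The 48 regions called in all 4 libraries showed the same split in the median difference, but not in the median percentile of each list. Their median percentile was 60.4 and 83.8 in MCF10A replicates 1 and 2 and 77.4 and 94.8 in G12V, against 63.0, 84.8, 68.1 and 89.2 for the 132 shared regions of the rest of the chromosome. In the replicate 2 lists 42 of the 48 (87.5%) ranked higher in G12V. The share was 62.9% for the shared regions of the rest of the chromosome and 66.5% for all shared regions. The median difference was 9.31 points, against 2.22 points in the rest of the chromosome. In the replicate 1 lists 29 of the 48 (60.4%) ranked higher in G12V, against 58.3% and 55.4%, with a median of 4.55 points against 7.23. The regions share libraries and cannot be treated as replicates.

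**Figure D5:**
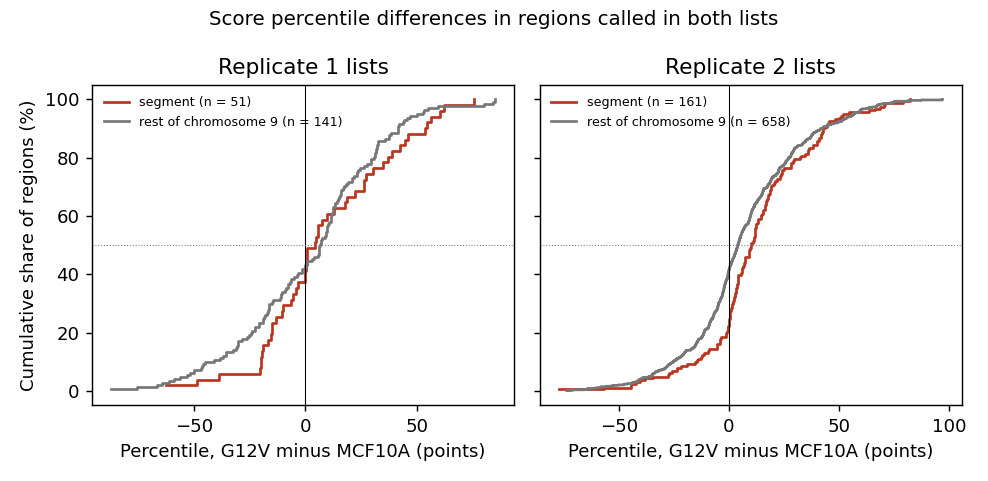
Cumulative share of regions (vertical axis, %) by the difference in score percentile, G12V minus MCF10A (horizontal axis, points), for regions called in both lists of a replicate number. In the replicate 2 panel the segment curve (n = 161, median 10.1) lies to the right of the rest of chromosome 9 (n = 658, median 4.05), while in the replicate 1 panel the medians are 4.43 (n = 51) and 6.66 (n = 141).

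The sequence of the segment regions had a lower GC content than elsewhere on the chromosome, with a median of 44% per 150 bp window against 50% in the rest of the chromosome and 48.7% over all regions. The gained windows had a median of 45.3%, against 50.7% for gained windows in the rest of the chromosome. AP-1 sites, bound by the FOS and JUN factors that act downstream of RAS signalling, were the most frequent of the 6 motifs. They were found in 75 of 551 segment windows (13.6%, 11 to 16.7), against 15.9% both in the rest of the chromosome and in all regions. TEAD sites were found in 9.07%, against 10.8% and 11.01%, and CTCF sites in 4.90%, against 7.32% and 6.56%. GRHL (1.45%), ETS (1.27%) and p53 (0.726%) matches were rare in the segment, and over all regions these stood at 0.856%, 2.15% and 1.27%.

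Of the 39 gained windows, 5 held AP-1 (12.8%, 5.603 to 26.7), 3 TEAD, 2 CTCF and 1 GRHL, and none held ETS or p53. In the rest of chromosome 9, 14 of 58 gained windows held AP-1 (24.1%, 14.96 to 36.5) and 10 held TEAD (17.2%, 9.64 to 28.9). Over all regions, 15.99% of the 1951 gained windows held AP-1 and 11.99% held TEAD. The segment share of TEAD among gained windows was 7.69% (2.65 to 20.3), so these intervals overlapped. CTCF was found in 5.13% of the gained windows of the segment (1.42 to 16.9), against 8.46% of gained windows over all regions. GRHL, ETS and p53 were found in 1.23%, 1.64% and 0.564% of gained windows over all regions. With 39 windows, the small counts and the absent motifs are too few to set the segment apart. Of the AP-1 matches 4, and both CTCF matches, are printed with 15 bp on each side, on the plus strand, with the match in capitals, as examples of factors that act in enhancers and at insulators. None of them overlapped another match. A match is a run of letters and not evidence that the factor was bound.

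AP-1 upstream of PUM3, chr9:3043563-3043599: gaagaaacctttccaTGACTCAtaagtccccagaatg
AP-1 in KDM4C, chr9:6944426-6944462: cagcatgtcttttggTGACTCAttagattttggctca
AP-1 far upstream of TYRP1, chr9:11934150-11934186: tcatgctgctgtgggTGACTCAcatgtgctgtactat
AP-1 in SH3GL2, chr9:17742288-17742324: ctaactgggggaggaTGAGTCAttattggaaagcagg
CTCF downstream of DMAC1, chr9:7570292-7570335: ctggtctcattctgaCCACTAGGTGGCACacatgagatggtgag
CTCF upstream of BNC2, chr9:16960275-16960318: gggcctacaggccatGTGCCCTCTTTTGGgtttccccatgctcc

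The CTCF match downstream of DMAC1 had 0 mismatches and the one upstream of BNC2 had 1, on the minus strand. The SH3GL2 window also held a TEAD match. Of the 5 regions with AP-1, the one in SH3GL2, a gene of endocytosis at synapses, ranked at 41.6 and 55.6 in the G12V lists. The gained regions with the highest ranks, printed at the start, were among those without a match to any of the 6 motifs.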

How the data were processed

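Chromatin accessibility had been measured by ATAC-seq in MCF10A and G12V cells. In the study's methods, the authors mapped reads with bowtie (0.12.9), kept those with 1 position, centred each read start on the insertion, and ran MACS (1.4.2) at a p of 0.0001. The deposited score of each peak is the MACS score, 10 times the negative log10 of its p-value, with 40 the lowest in the lists. Lists were per library, in hg19, and without read counts, so depth is unknown and a locus just under the threshold in a short list looks absent.

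Here, overlapping peaks on the 22 autosomes and X were merged, and scores were turned into percentiles of their own list. Gene starts and bodies came from GENCODE release 44 mapped to GRCh37, and windows from the GRCh37 sequence. The start of a gene was its outermost annotated one, and other starts of the same gene were not used. Up to 1 mismatch was allowed for CTCF, 3 for p53 outside its core and 0 for the other motifs. Windows that reach an exon were not printed, and the sequence of 1 AP-1 match is not reported here. Named were genes with 2 or more gained regions or any lost region, and genes of fixed lists. The members and lists were chosen with earlier results of these data known, so no p-value is given. Shares have 95% Wilson intervals. Alternatives were the best 50% of each list, equal lists of 12888 peaks, other overlap rules, other segment ends, long non-coding gene starts, leaving out each library, and the replicate block. Python 3.11.15, numpy 2.4.6, scipy 1.17.1 and matplotlib 3.10.9 were used, and the scripts were tested on simulated data.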

Additional observations from a re-analysis of the deposited data

How the results depend on the processing

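The segment held a larger share of chromosome 9 peaks in G12V under every alternative run, with a difference from 4.83 points (start below 10 Mb) to 15.8 points (leaving out each library gave 7.91 to 15.8). The odds ratio was 1.49 in the better-scoring 50% of each list, 1.43 for starts below 10 Mb, and 1.63 to 2.42 with a library left out. Counts of gained and lost regions followed the lists by construction. Gained regions numbered 13 in the better-scoring 50%, 24 in equal lists, 19 below 10 Mb and 41 to 307 with a library left out (307 without G12V replicate 1, 84 without MCF10A replicate 2, 72 without G12V replicate 2). Lost regions numbered 3 to 39 (39 without MCF10A replicate 1, 15 without G12V replicate 2, 7 without MCF10A replicate 2). The gained share ran from 51.2% without MCF10A replicate 1 to 99.03% without G12V replicate 1, where the rest of the chromosome gave 14.98% and 94.8%, and 41.9% without G12V replicate 2. In equal lists it was 85.7% against 49.4%. The segment stayed above the rest of the chromosome in each of these.

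The percentile difference was 16.1 points in the better-scoring 50% of each list (rest of the chromosome 5.52) and 7.36 in equal lists (rest 0.898), and −0.782 (without G12V replicate 2) to 19.3 (without MCF10A replicate 2) points with a library left out. It was 1.39 without MCF10A replicate 1 and 16.1 without G12V replicate 1. In the rest of the chromosome it was −3.02 (without G12V replicate 2) to 12.04 with a library left out. The promoter share of gained regions was 0% in the better-scoring 50% and for starts below 10 and 15 Mb, where the single promoter region falls away, 12.5% in equal lists, 7.69% with long non-coding starts included, and 1.39% to 10.7% with a library left out. Apart from what the construction sets, the cause was not tested.

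With the replicate block, called within each replicate number, gained regions averaged 215 and lost regions 31, with an odds ratio of 1.81, a gained share of 86.7% and a percentile difference of 7.26 points. The correlation of same-numbered deviations over the 60886 regions was −0.113 for calls and 0.142 for percentiles, set to 0 without a peak. The signs differ, and every region has a peak in some library, so these values cannot tell whether same-numbered samples shared more than a number. Crossed numbers, an alternative chosen after seeing the data, gave 241.5 gained and 57.5 lost.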

Other observations

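Of the 39 gained regions, 11 overlapped a long non-coding RNA gene. The share among all regions of the segment was not counted, so this number does not set the gained regions apart. Among the 11, chr9:14347263-14348539 overlapped an exon of NFIB-AS1, which runs antisense to NFIB, and chr9:12702136-12702801 lay in an intron of LURAP1L-AS1. The 2 gained regions in KDM4C overlapped 1 unnamed long non-coding gene, chr9:6902362-6903143 in its exon and chr9:6944100-6944856 in its intron.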
